A study of Caenorhabditis elegans with 2 samples.

Results

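Peaks of tagged ARID-1 in coding exons lay mostly within 500 bp of the 3' end of the gene. There lay 61.6% of them, against 19.3% of the coding exon bases more than 500 bp from gene 5' ends. In 3' untranslated regions (UTRs) the share was 86.3%, against 82.2% of the bases, so it was near what the class itself sets. Among the coding exon peaks within 500 bp of the 3' end, 65 of 69 were in genes whose end faces the end of a neighbour. ARID-1 is a worm protein with an AT-rich interaction domain, a DNA-binding fold. Its binding was measured by chromatin immunoprecipitation followed by sequencing (ChIP-seq). Of the 2306 nuclear peaks in the conservative list of the series, 205 had a summit (the base of strongest signal in a peak) in a coding exon or UTR of a protein-coding gene and more than 500 bp from the 5' end of every protein-coding gene. These 205 peaks fell into 112 coding exon peaks (4.86% of nuclear peaks), 20 5' UTR peaks (0.867%) and 73 3' UTR peaks (3.17%). A summit that fits more than 1 class through different transcripts was placed in the 5' UTR first, then the coding exon, then the 3' UTR. The other 2101 nuclear peaks comprise 944 promoter peaks, within 500 bp of a 5' end, 459 in introns and 698 outside protein-coding genes.

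The series has 1 group of 2 samples, labelled as biological replicates 1 and 2 and tied to different biosamples. All worms were Caenorhabditis elegans of strain RW12194, in which arid-1 on chromosome V carries TY1::EGFP::3xFLAG, placed at the gene's own locus with CRISPR. Whole L4 larvae were taken at 47 hours after synchronisation by starving bleached L1 larvae, and chromatin was precipitated with an antibody against GFP. Binding in a few cells of the worm and weak binding in many cannot be told apart. No control library was used here, and the lists hold no read depth. Because there is 1 group, no group comparison follows, and values are descriptions with no test over regions.

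Coding exons carry the sequence that is translated. The 5' UTR lies before the start codon, often split by introns, and the 3' UTR runs from the stop codon to the site where the transcript is cut and given a poly(A) tail. Worm genes are compact and often lie tail to tail, meaning that genes on opposite strands end close to each other, so that a site near one gene's 3' end is often also near its neighbour's. ARID-1 has been described as a subunit of the SIN-3 complex, which removes acetyl groups from histones.

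The sequences at high peaks of each class are shown, from chromosomes II to V and X only, to place each summit in its gene. They are read from the RefSeq sequence of WBcel235 (the assembly of ce11) on the strand of the host gene, 5' to 3', with the summit base in capitals. The coding exon summits lie at chrIII:835912-835940 (minus strand) in dos-3, which belongs to a family of secreted Notch co-ligands, chrX:5429542-5429570 (plus) in the polyketide synthase pks-1, chrII:9056401-9056429 (plus) in chmp-7, of the ESCRT membrane-remodelling machinery, and chrV:9503492-9503520 (plus) in the sugar transporter swt-5. The 5' UTR summits lie at chrIII:3456403-3456431 (plus) in C34C12.2 and chrIII:12599091-12599119 (minus) in gldi-8. The 3' UTR summits lie at chrIV:2639829-2639857 (minus) in mdf-2, the worm Mad2 spindle checkpoint protein, and chrIII:10746565-10746593 (plus) in rib-2, a glycosyltransferase of heparan sulfate synthesis.
dos-3 summit: ggccaaatcgcttaTggtgcacattgggc
pks-1 summit: agactcatctcgtgTcccttcgccaatgc
chmp-7 summit: atcaattggaaaaaCgcctagctagactc
swt-5 summit: ggcgctcaaattgcTgggtctctggtctg
C34C12.2 summit: gtgtctgcagacttTttgcgcgatgcaag
gldi-8 summit: tttccaatccaattGaataggactttgag
mdf-2 summit: attcgtggttttcaCccacgcggcccggt
rib-2 summit: ggtataattcacttGtcgaatggtgctac

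The classes differed in how their peak numbers related to the sequence they could come from. Coding exons more than 500 bp from gene 5' ends make up 19.0% of the nuclear genome but held 4.86% of the peaks, or 5.87 peaks per Mb, against 23.0 per Mb over all nuclear sequence. The 5' UTRs make up 0.653% and held 0.867% (30.6 peaks per Mb), and the 3' UTRs make up 2.70% and held 3.17% (26.95 per Mb). Among the 74959 weaker peaks of the ranked list that contains the conservative peaks, those that missed its reproducibility threshold, 25.6% had coding exon summits, 0.846% 5' UTR and 3.01% 3' UTR summits. Coding exons were therefore rarer in the conservative list than in the weaker peaks of the same libraries, and the UTR shares were alike in both. The replicates' own thresholded lists held 36.5 ± 0.71 coding exon, 11.0 ± 2.8 5' UTR and 36.5 ± 2.1 3' UTR peaks (mean ± SD, n = 2 replicates).

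Coding exon summits gathered at the end of the gene. Their median position was 83.5% of the way along the host gene, and 77 of the 112 lay in the last 25% of its length, where 31.5% of the eligible coding exon bases lie. Only 5 lay in the first 25%. The median summit lay 347 bp before the gene's 3' end. Of the 112 summits, 69 (61.6%) lay within 500 bp of that end, against 17.2% of the weaker coding exon peaks and 19.3% of the eligible coding bases. In the replicates' own lists the share was 73.0% in replicate 1 and 75% in replicate 2 (74.0 ± 1.43%, mean ± SD, n = 2). The last coding exon held 69 summits (61.6%, against 16.5% of the weaker peaks and 16.4% of the bases), an internal coding exon 40 and the first coding exon 3. These sets are not the same peaks: 63 summits were both in the last coding exon and within 500 bp of the 3' end. The median of the summits near the end lay 99 bp before the stop codon, and 63 of the 69 lay within 250 bp of it.

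**Figure D1:**
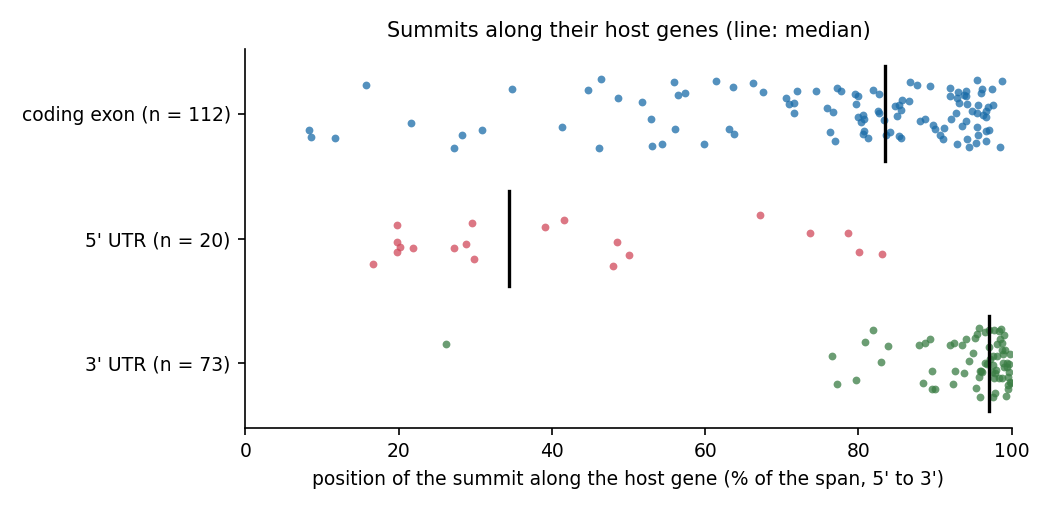
Position of each summit along its host gene, as a percent of the gene's annotated span in the direction of transcription, for the 112 coding exon, 20 5' UTR and 73 3' UTR peaks; points are single peaks, spread vertically only for visibility, and black lines are medians. Coding exon summits crowd the right side with a median of 83.5%, 5' UTR summits spread around 34.5%, and 3' UTR summits lie at the right edge with a median of 96.98%.

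At these gene ends the neighbour was nearly always another gene's end. The neighbour was taken as the protein-coding gene that reaches past the host's 3' end with the smallest overlap or, where none overlaps, the smallest gap, and as tail to tail where it is on the opposite strand. Among the 69 coding exon peaks within 500 bp of the 3' end, 65 (94.2%) had a tail-to-tail neighbour, against 57.4% of the 3314 weaker coding exon peaks in the same position and 45.1% of all protein-coding genes. The share was 96.3% in the list of replicate 1 and 92.6% in that of replicate 2. In 39 of the 69 (56.5%) the annotated host overlapped a tail-to-tail neighbour, against 25.8% of those weaker peaks and 16.1% of all genes. Overlaps with a same-strand neighbour are not in these shares, so they also carry the difference in how many neighbours were tail to tail. The weaker peaks passed the same 500 bp limit from 5' ends, which leaves out summits close to the start of a same-strand neighbour. The values for all genes carry no such limit, so the weaker peaks are the closer comparison. The median tail-to-tail gap of the 65 was -11 bp, which is an overlap of 11 bp. The median summit near the end lay 225 bp from the tail-to-tail neighbour's 3' end. The 4 without such a neighbour were in rha-1, T21H3.1, xbx-9 and tag-297. The 43 coding exon peaks farther from the 3' end had a tail-to-tail neighbour in 14 cases (32.6%).

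**Figure D2:**
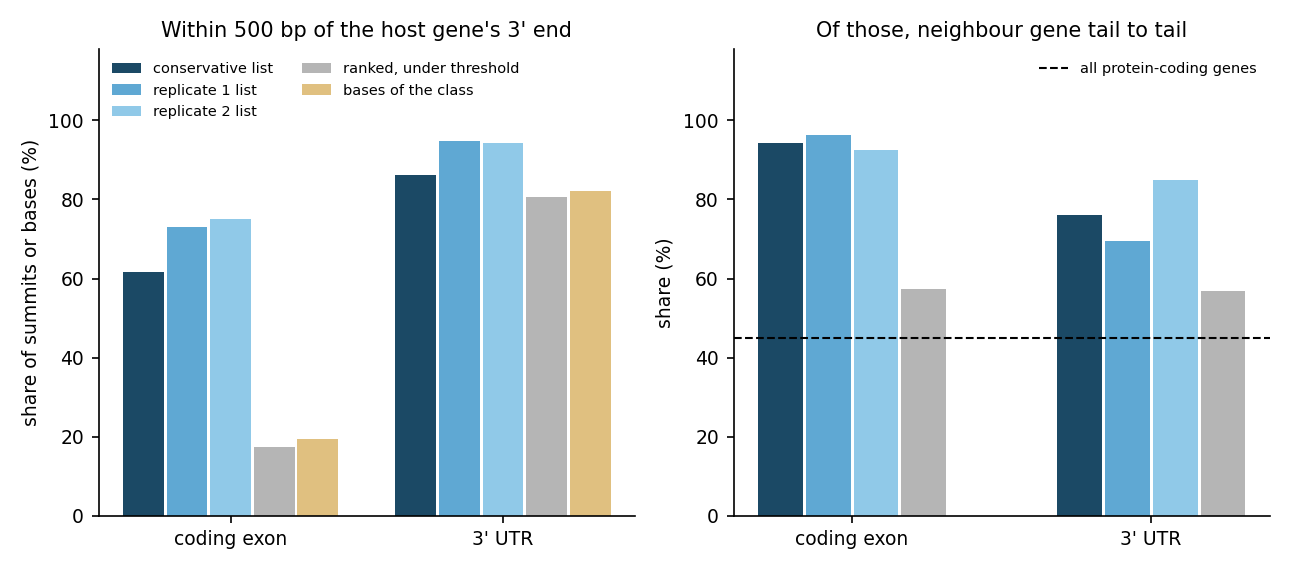
Left, share in percent of summits, or of eligible bases, within 500 bp of the host gene's 3' end; right, share of those summits whose 3' neighbour gene is tail to tail. Bars are the conservative list, each replicate's own list, the weaker ranked peaks and, on the left, the bases of the class. The dashed line is the 45.1% of all protein-coding genes, with no limit on distance from 5' ends. Coding exon peaks reach 61.6% on the left against 19.3% of bases, and 94.2% on the right.

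Among the gene lists, ribosomal protein genes were the most frequent neighbours of coding exon peaks, and the numbers are small. They were the tail-to-tail neighbours of 4 coding exon peaks: rpl-32 beside chmp-7, rpl-4 beside lmd-2 (a LysM domain protein), rps-26 beside gpr-158, and rla-1 beside arl-13. These are 4 of the 81 ribosomal protein genes. The coding exon peaks near gene ends had 67 distinct neighbours, tail to tail or on the same strand, among the 19973 protein-coding genes. No ribosomal protein gene was such a neighbour of a 3' UTR or 5' UTR peak, and each of the other 15 lists gave 0 or 1 neighbour of a coding exon peak. The 10 coding exon peaks of highest signal include 8 near a gene end, all with a tail-to-tail neighbour. Beside rpl-32 and rpl-4, these neighbours were zip-2 for dos-3, pqm-1 (a zinc finger gene) for arrd-6 (an arrestin-domain protein), pck-2 for suro-1, the elongation factor gene eef-1A.1 for F31E3.12, the chaperone gene dnj-12 for tmem-107 (a ciliary transition zone protein) and the citrate synthase gene cts-1 for best-18 (a bestrophin channel). In 9 tail-to-tail pairs both genes held a peak of these classes. Examples are D2030.12 and prg-1, the Piwi Argonaute of the germline, and F25B5.5 and ubq-1, each of these genes with a coding exon peak.

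A single strong peak, in dos-3, stood above the rest of the coding exon peaks. Signal is the value the authors' peak caller gave to each peak, and its scale between lists is unknown. The dos-3 peak (chrIII:835819-836046) had a signal of 270.5, rank 28 of the nuclear peaks. The same place had 109 in the ranked list of replicate 1 and 154 in that of replicate 2 (131 ± 31.9, mean ± SD, n = 2). It lay in the last coding exon, 175 bp before the gene's 3' end, and 112 bp from the 3' end of zip-2, a bZIP transcription factor gene whose annotated span overlaps dos-3 by 64 bp. The next was pks-1 (chrX:5429421-5429690, signal 134), in coding exon 22 of 30 and 12405 bp from the 3' end. Its signals of 92.8 in replicate 1 and 47.7 in replicate 2 (70.2 ± 31.9) were far apart.

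The other coding exon peaks of high signal, except swt-5, were at gene ends. The chmp-7 peak (chrII:9056280-9056549, signal 122) had 61.8 in replicate 1 and 56.0 in replicate 2, and its summit lay 89 bp before the 3' end. The swt-5 peak (chrV:9503371-9503640, signal 114) lay in coding exon 5 of 7 and overlapped a tRNA gene. Below these came arrd-6 (110), suro-1 (109), F31E3.12 (108), tmem-107 (106), lmd-2 (100.5) and best-18 (99.0), each within 500 bp of its gene's 3' end. Of these 10 peaks of highest signal, 8 were on both replicates' own lists and arrd-6 and lmd-2 on 1.

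Most coding exon peaks were weak. Their median signal was 62.3 (quartiles 56.2 and 73.2), against 78.5 (63.1 and 107) for the other 2101 nuclear peaks, and 20 of 112 (17.9%) reached the median of all nuclear peaks, against 52.5% of the others. In 4 equal bins of nuclear signal from low to high, coding exon peaks numbered 54, 38, 12 and 8. The same places had a median signal of 32.0 in the ranked list of replicate 1 and 32.4 in that of replicate 2 (32.2 ± 0.279), against 38.7 and 42.03 (40.4 ± 2.35) for the other nuclear peaks, so the order held in each replicate.

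Replicate support followed the signal. A conservative peak was counted as supported by a replicate when it overlapped a peak of that replicate's own thresholded list by at least 1 bp. These lists come from the same libraries as the conservative list, so support is not independent evidence. Of the coding exon peaks 29 were on the list of replicate 1, against 47.1% of all nuclear peaks, and 19 on that of replicate 2, against 47.6%. On both lists were 11 of 112 (9.82%), against 33.5% of all nuclear peaks and 35.5% of those outside the 3 classes, and on neither were 75 (67.0%), against 38.9% of all nuclear peaks. Among peaks at or above the median signal, 10 of 20 coding exon peaks were on both lists, against 64.9% of the other 1103. Support was lower away from gene ends: 38 of the 43 peaks farther from the 3' end (88.4%) were on neither list, against 37 of the 69 near it (53.6%). The farther peaks were also weaker, with a median signal of 58.3 against 65.5. Whether position matters at like signal was not tested.

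**Figure D3:**
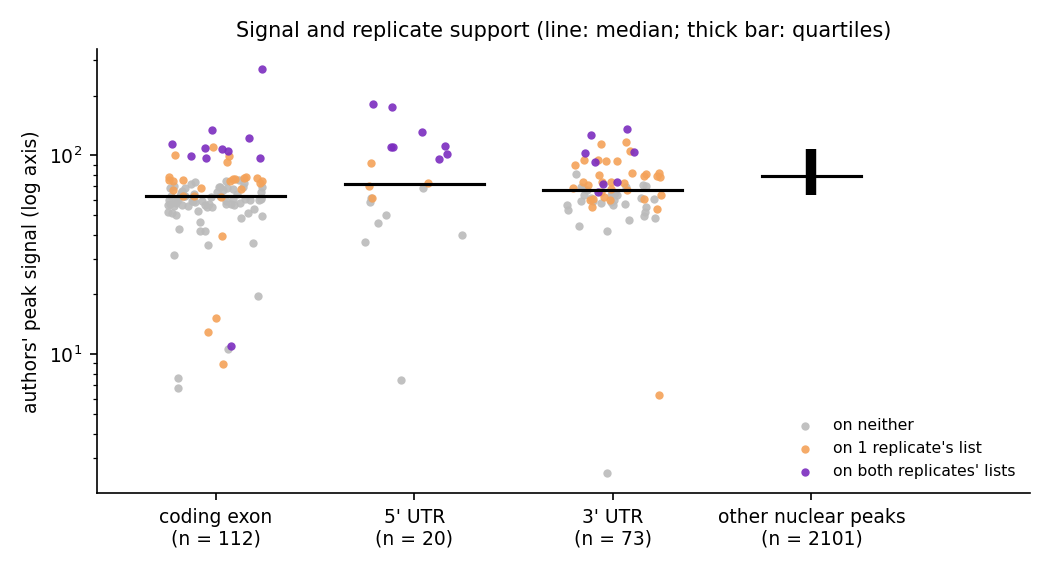
Signal of each peak on a log axis for the 3 classes, coloured by the replicates' own lists that hold it, with the median as a black line; for the other 2101 nuclear peaks the median and quartiles are drawn. The coding exon median of 62.3 lies below the 78.5 of the other nuclear peaks, and the 8 strongest 5' UTR peaks are all on both lists.

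The coding exon peaks on both lists and in the body of a gene were pks-1, swt-5 and dhc-4, the only 3 of those 43 on both lists. The dhc-4 peak, in a dynein heavy chain gene, had a signal of 11.0 and adjoined an intronic peak of signal 173 at 199 bp, near the snRNA gene R07E5.16. Its replicate values of 103.8 and 69.7 are those of a ranked peak that also covers the intronic summit. Others of the 43, on neither list, were in the long genes unc-52 (perlecan of the basement membrane, signal 58.3, 17495 bp from the 3' end) and egl-4 (a cGMP-dependent kinase, 2 peaks of 73.9 and 60.7). Over all 112 coding exon peaks, chaperones gave hsp-110 and dnj-20, splicing factors rsp-8 and sfa-1, and vitellogenins vit-6, a yolk protein gene (62.3, 245 bp from the 3' end).

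The 5' UTR peaks were fewer than the coding exon and 3' UTR peaks, and a larger share of them was on both replicates' own lists. Their median signal of 71.5 was above those of coding exon (62.3) and 3' UTR peaks (66.8), but this order turned when peaks near the 5' end of any transcript were left out: the 5 that remained had 61.2, against 62.7 for coding exon and 65.7 for 3' UTR peaks. They lay in 18 genes with a median length of 6386 bp, against 2027 bp for all protein-coding genes. A 5' UTR summit more than 500 bp from every gene 5' end needs a gene longer than that, so the class itself favours long genes. The median position of the 5' UTR peaks was 34.5% along the gene, and the median summit lay 290 bp before the start codon along the genome. None was within 500 bp of the 3' end. Although all lie over 500 bp from the 5' end of the longest span of the gene, 15 of 20 (75%) had the 5' end of some annotated transcript within 500 bp, against 57.7% of the 634 weaker 5' UTR peaks and 55.0% of the eligible bases. In the replicates' own lists the share was 77.8% and 76.9% (77.4 ± 0.604). Far fewer coding exon peaks (11, or 9.82%) and 3' UTR peaks (3, or 4.11%) were that close to a transcript's 5' end. For 12 of the 20 the distance was at most 150 bp. A 5' UTR peak and the promoter of a shorter transcript therefore could not be told apart by position in those cases.

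Signal and support of the 5' UTR peaks split into high and low peaks. The 8 of highest signal, from 182 down to 96.1, were on both replicates' own lists, and none of the other 12 was, the highest of which had 92.1 (vhp-1, a MAP kinase phosphatase). This gives 8 of 20 on both lists (40%), 4 on a single list and 8 on neither (40%). Over all nuclear peaks 33.5% were on both and 38.9% on neither, so the 5' UTR shares were near these. The quartiles of 5' UTR peak signal were 56.3 and 110. The ranked lists gave medians of 39.4 in replicate 1 and 38.1 in replicate 2 (38.7 ± 0.884). The 4 equal bins of nuclear signal held 8, 3, 3 and 6 of them, low to high.

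The strongest 5' UTR peak was in pck-2 (signal 182), a phosphoenolpyruvate carboxykinase of gluconeogenesis. It had 98.7 in replicate 1 and 94.1 in replicate 2 (96.4 ± 3.24), and the summit lay 27 bp from a transcript's 5' end and 1205 bp from the nearest gene 5' end. C34C12.2 (chrIII:3456282-3456551, signal 175) had 93.0 and 85.1 (89.02 ± 5.61) and lay 2072 bp from any annotated transcript 5' end. egl-30, the Gq alpha subunit (signal 130), lay 260 bp from one, gldi-8 (112) 421 bp and T28F4.4 (111) 769 bp. F25H2.12 (110), tent-5 (a terminal nucleotidyltransferase, 102) and mnk-1 (a kinase that acts downstream of MAP kinases, 96.1) lay 55, 79 and 2 bp away. The 2 replicates were close for most of these and farther apart for T28F4.4, with 39.4 in replicate 1 and 71.7 in replicate 2. Weaker 5' UTR peaks lay in nhr-66 (a nuclear receptor, 72.6), ntl-2 (of the CCR4-NOT deadenylase, 68.7), wdr-23 (a negative regulator of SKN-1, 61.4), noca-1 (of non-centrosomal microtubules, 58.4) and ppw-1 (an Argonaute, 49.9).

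A repeat of GA was more frequent in the 5' UTR windows. The letters GAGAGA, read on both strands (TCTCTC on the other), were present within 100 bp of 10 of 20 summits (50%), against 31.5% of the other nuclear peaks, 14.8% of the weaker 5' UTR peaks, 10.7% of the coding exon peaks and 13.7% of the 3' UTR peaks. Runs from 5 genes on chromosomes II to IV are shown because this was the motif with the widest gap between the peaks and the weaker peaks. They are on the host's strand, with the copy of the motif nearest the summit in capitals and any further copy left in lower case. The runs lie at chrIII:12599165-12599194 (minus) for gldi-8, chrII:10548925-10548954 (minus) for mnk-1, chrIV:8229666-8229695 (minus) for nhr-66, chrII:6926632-6926661 (minus) for F22D3.4 and chrIV:4470018-4470047 (minus) for M01H9.3. With 20 peaks, and letters chosen with results known, this is a description of these windows.
gldi-8 repeat: gtgtgaatatcgGAGAGAcgcagagaagaa
mnk-1 repeat: tccgcctccggtTCTCTCgcccttacctcc
nhr-66 repeat: gactgtgtctcgGAGAGAgcaaaataacag
F22D3.4 repeat: gaaaagagagacGAGAGAcgcggcgaccag
M01H9.3 repeat: tagagagctttcTCTCTCccaccccctatc

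The 3' UTR peaks lay close to the end of the transcript, as the class itself sets. Their median position was 96.98% along the gene and 146 bp from its 3' end, and 63 of 73 (86.3%) were within 500 bp of it, against 80.6% of the 2255 weaker 3' UTR peaks and 82.2% of the bases. In the replicates' own lists the share was 94.7% and 94.3% (94.5 ± 0.319). The median summit lay 312 bp past the stop codon. Of the 63 near the end, 48 (76.2%) had a tail-to-tail neighbour, against 57.0% of the 1817 weaker peaks in the same position. The share was 69.4% in the list of replicate 1 and 84.8% in that of replicate 2, which differ by more than the 2 lists differed for coding exons. Of the same 63, 26 (41.3%) overlapped that neighbour, against 27.4% of the weaker peaks. The poly(A) signal AATAAA was present on either strand within 100 bp of 50.7% of the summits and of 50.6% of the weaker 3' UTR peaks.

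The signal of the 3' UTR peaks was low, as in coding exons, and a smaller share of them than of all nuclear peaks was on both lists. The median signal was 66.8 (quartiles 59.03 and 78.4), and 21 of 73 (28.8%) reached the median of all nuclear peaks. The ranked lists gave 33.5 in replicate 1 and 34.7 in replicate 2 (34.1 ± 0.854). On the list of replicate 1 were 27 and on that of replicate 2 were 22; 8 (11.0%) were on both, 33 on a single list and 32 (43.8%) on neither. The share on a single list (45.2%) was higher than that of coding exon peaks (23.2%) and of the other nuclear peaks (27.3%). Among peaks at or above the median signal, 5 of 21 3' UTR peaks were on both lists (23.8%), against 8 of 9 5' UTR peaks and 64.9% of the other 1103.

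**Figure D4:**
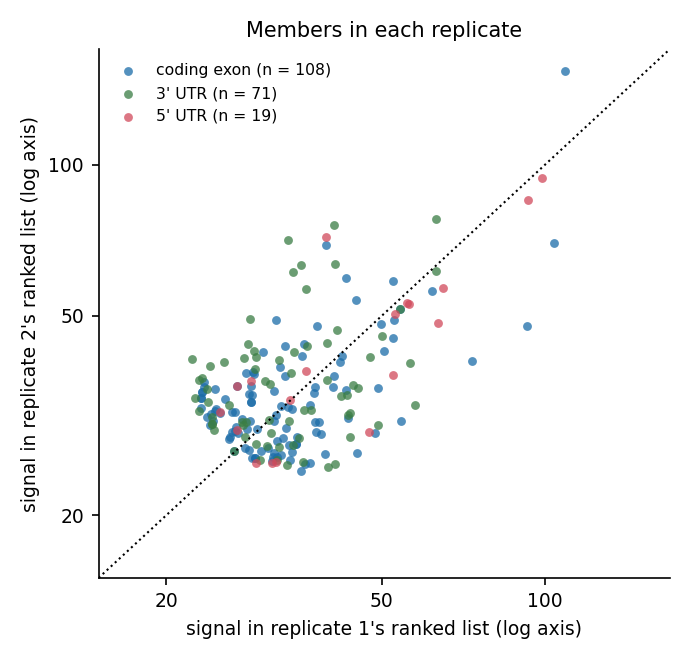
Signal of the same peak in the ranked list of replicate 1 (horizontal) and of replicate 2 (vertical), both on log axes, for the 108 coding exon, 71 3' UTR and 19 5' UTR peaks found in both lists; the dotted line marks equal values. The dos-3 peak lies at the top right with 109 and 154, and the class medians lie between 32.0 and 39.4 in both replicates.

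The highest 3' UTR peak was in ekl-1 (chrI:7098177-7098446, signal 135), a Tudor-domain protein that acts with the Argonaute csr-1. It had 63.02 in replicate 1 and 77.9 in replicate 2 (70.5 ± 10.5). mdf-2 followed with 127 (63.04 in replicate 1 and 61.5 in replicate 2), but its summit was 3616 bp from the gene's end and its peak overlapped a tRNA gene. Then came Y43F8B.3 (117), C05D11.8 (114.5), rib-2 (105), car-1 (an RNA-binding protein of germ granules, 103.7) and lin-29 (103), the zinc finger that drives the switch from larva to adult in the skin at L4. The lin-29 peak (chrII:11917652-11917921) lay 145 bp from the gene's end and had 40.9 in replicate 1 and 63.5 in replicate 2. lelo-2 (95.3), rpl-3 (a ribosomal protein gene, 95.2) and mnk-1 (94.0) completed the 10 of highest signal. Of these, ekl-1, mdf-2, car-1 and lin-29 were on both replicates' own lists, as were W08E12.7 (92.3), ncl-1 (73.7), C36E8.4 (71.5) and twk-13 (a potassium channel, 65.7).

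Genes of the germline and small RNA list held peaks in 3' UTRs and coding exons. csr-1 (78.4, 83 bp from its 3' end), hrde-1 (a nuclear Argonaute, 73.0 at 156 bp) and ekl-1 held 3' UTR peaks. hrde-1 and prg-1 held coding exon peaks, neither of which was on a replicate's own list. So 4 of 129 genes of that list held a peak (3.10%), against 0.926% of all 19973 protein-coding genes. Chromatin regulators gave 3 of 113 (hda-2, lin-40, a NuRD subunit, and the SET-domain gene set-17) and homeobox genes 2 of 86 (ceh-8 and ceh-38). The shares of splicing factors (3 of 52, 5.77%) and chaperones (2 of 61, 3.28%) were above that of the germline and small RNA list. No collagen or cuticle gene (of 227), histone gene (of 81), chemoreceptor gene (of 1365), F-box or MATH gene (of 445) or lectin or detoxification gene (of 478) held one. For the 81 histone genes and the 227 collagen or cuticle genes a 0 is near the 0.926% of all protein-coding genes. For the larger lists the 0 was not tested against that share. Of the 81 ribosomal protein genes, 1 (rpl-3) held a peak of these classes (1.23%), also near that share. Of those 81, 52 had a summit within 500 bp of their 5' end.

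The 205 peaks lay in 185 genes, and 34 of these (18.4%) also had a summit within 500 bp of their 5' end, against 5.68% of all protein-coding genes. In 17 genes there was more than 1 peak. mnk-1 had 5, of which 1 was in the 5' UTR (96.1), 1 in a coding exon (68.6) and 3 in the 3' UTR (94.0, 66.8 and 55.4). Its 3' UTR of 1928 bp holds 3 summits between 411 and 1530 bp from the end. ncl-1, which limits ribosomal RNA synthesis, had 2 in its 3' UTR, 87 and 1352 bp from the gene's end. tent-5 and fubl-1 each had 1 in the 5' UTR and 1 in a coding exon, and gldi-8 and M01H9.3 had 2 each in the 5' UTR. egl-4, hrde-1, hda-2, arrd-6, lelo-2, F53F10.1, F26F12.3, hsp-110, mrrf-1, tag-297 and tbg-1 (gamma-tubulin) had 2 each.

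Several of these double peaks were adjoining calls. Of the 205 summits, 25 (12.2%) had another summit of the conservative list within 250 bp, against 4.33% of the other nuclear peaks, and 11 such pairs joined 2 members. All 11 members with a signal under 20 were of this kind, as were all 34 of the other nuclear peaks with a signal under 20. In tbg-1 the signals were 62.1 and 8.91 at 203 bp, and in arrd-6 they were 110 and 6.25 at 199 bp. Counting each pair once by its higher peak left 102 coding exon, 18 5' UTR and 71 3' UTR peaks, and 60.8% of the coding exon peaks within 500 bp of the 3' end.

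Gene ends were also frequent among peaks outside genes. Within 500 bp of the 3' end of any protein-coding gene lay 35.4% of the 698 peaks outside protein-coding genes, against 14.1% of the bases there, and 8.50% of the 459 intron peaks, against 6.50% of the bases. For coding exon peaks the same measure was 61.6%, against 20.3% of the bases, and for 3' UTR peaks 87.7%, against 82.8%. The share of members on the X chromosome was 9 of 205 (4.39%), against 16.6% of the other nuclear peaks, while the X holds 14.9% of the eligible coding exon bases, 21.9% of the 5' UTR and 20.7% of the 3' UTR bases. The X share differed between the replicates' own lists: 10.8% of the coding exon peaks in replicate 1 and 2.78% in replicate 2, 7.89% of the 3' UTR peaks in replicate 1 and 0 in replicate 2, and 0 of the 5' UTR peaks in both. Small RNA genes (tRNA, snoRNA, snRNA or rRNA) overlapped 4 coding exon, 1 5' UTR and 3 3' UTR peaks, or 8 of 205, against 458 of the other 2101. The members nearest the 500 bp limit from 5' ends were fubl-1 (536 bp), Y57G11A.2 (542 bp) and F31E3.12 (553 bp), with signals of 39.6, 53.96 and 108. Left out just within that distance were F23C8.5 (497 bp), ZK131.11 (491 bp) and T28F4.8 (490 bp), with 39.4, 70.9 and 54.3.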

How the data were processed

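Peaks on ce11 came from the authors' deposited lists. Ranked and thresholded lists exist for each replicate, and the file notes derive the series-level lists from the alignments of both. The sources used here do not name an aligner or peak caller. The deposited signal value of each peak is the authors' own, with unknown scale between lists. The deposited −log10 of the irreproducible discovery rate (IDR) was read from the ranked lists, and every conservative peak had at least 2 there (IDR 0.01). No counts are given, so depth is unknown. Summits were placed with Ensembl release 115 models of WBcel235 in Python 3.11.15 with pandas 2.3.3 and numpy 2.4.6, and the classification was tested on simulated positions. Values are described without tests. Motifs were searched in 201 bp windows. Named genes are the peaks of highest signal per class, those on both replicates' lists, genes with several peaks and members of 16 gene lists. Members, lists and motifs were chosen with earlier results of these data known. Alternatives are given in the closing section.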

Additional observations from a re-analysis of the deposited data

How the results depend on the processing

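The order of the 5' UTR median signal changed with the processing: with the 5' ends of every transcript it was 61.2, below coding exons (62.7) and the 3' UTR (65.7), and on the other thresholded list it was 92.1, above the 77.6 of all nuclear peaks, whereas the reported 71.5 is above both classes and below the 76.0 of all nuclear peaks. Over 16 results, 114 of 176 alternative values stayed within the limits used (1.5 times for counts, 1 SD between the replicates' lists for medians and shares). This count includes alternatives that could hardly change a value. Most summits lie at the middle of the peak, so using the midpoint moves little. Placing coding exons before UTRs leaves the 3' UTR class as it was. Keeping peaks at or above the median signal gave 20 coding exon, 9 5' UTR and 21 3' UTR peaks, median signals of 99.0, 111 and 93.4, median positions of 91.6%, 39.1% and 97.7%, 85.0% of coding exon and 95.2% of 3' UTR peaks near the 3' end, 100% of those coding exon peaks tail to tail, and 5 3' UTR peaks on both lists. The other thresholded list gave a 5' UTR position of 29.6%, a 3' UTR position of 97.4% with 91.0% near the end, and 91.0% of coding exon peaks near the end tail to tail. A limit of 250 bp from 5' ends gave 59.1% of coding exon and 87.5% of 3' UTR peaks near the end and positions of 28.8% (5' UTR) and 96.7% (3' UTR); a limit of 1000 bp gave 58.8%, 84.1%, 48.0% and 96.5%. Using the 5' ends of every transcript left 5 5' UTR peaks, 2 of them on both lists, at a position of 41.6%, a 3' UTR position of 96.6%, and 65.3% of coding exon and 85.7% of 3' UTR peaks near the end. Placing coding exons before UTRs gave 58.5% of coding exon peaks near the end, and a 5' UTR median signal of 82.4 at 44.8%. Without peaks on small RNA genes, the 5' UTR position was 29.9% and 87.1% of 3' UTR peaks were near the end. Counting adjoining peaks once, an alternative chosen after seeing the data, gave median signals of 63.3 for coding exons and 82.4 for the 5' UTR, and 85.9% of 3' UTR peaks near the end. The shares near the end and tail to tail were also added after seeing the data.

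With a single replicate's own list, coding exon peaks numbered 36 to 37, 5' UTR peaks 9 to 13 and 3' UTR peaks 35 to 38. Their median signals were 42.3 to 43.7, 50.3 to 56.2 and 40.3 to 43.5, on each list's own scale, and their median positions 85.6% to 90.7%, 29.9% in both and 97.2% to 97.5%. Coding exon peaks were near the end in 73.0% to 75% and 3' UTR peaks in 94.3% to 94.7%. No paired analysis was possible because the series has 1 group. The cause of these shifts was not tested. Read depth is unknown and there was no control library, so absence of a peak in coding exons does not show absence of binding. With 2 replicates, an SD rests on 2 values.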

Other observations

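Other letters were searched on both strands. Within 100 bp of the summit, TATAAA was present in 10.7% of coding exon peaks, against 10.1% of the weaker coding exon peaks, and in 13.7% of 3' UTR peaks, against 24.6% of the weaker ones. The 3' UTR share was 10.5% on the list of replicate 1 and 25.7% on that of replicate 2, so the lower share was not seen in both. The letters TTTCAG were present in 38.4% of coding exon peaks, against 36.2% of the weaker ones, with 32.4% in replicate 1 and 22.2% in replicate 2. In 3' UTR peaks the share was 16.4%, against 27.5% of the weaker ones, but 26.3% in replicate 1 and 34.3% in replicate 2, so neither list showed the lower share. GTTCGA, the core of the tRNA B box, was present in 8.93% of coding exon peaks (10.8% in replicate 1 and 2.78% in replicate 2), against 20.2% of the nuclear peaks outside the 3 classes. Median GC content of the 201 bp around the summit was 44.5% in coding exon peaks, 43.3% in 5' UTR peaks and 36.3% in 3' UTR peaks, against 44.3% in the other nuclear peaks and 33.8% in the weaker 3' UTR peaks.

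Nearly all members lay in sequence found once in the genome. In 1 peak of each class at least 50% of the 36-base words around the summit occurred more than once, against 5.66% of the other nuclear peaks; these 3 peaks were in maph-1.2, pck-2 and ekl-1.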
